A study of Mus musculus with 27 samples.

Results

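The 7 whole-lung RNA-seq libraries of mice given both house dust mite and combustion products (HDM_CP) fell into classes by the level of Ighg1, the gene of the immunoglobulin G1 (IgG1) heavy chain constant region. Classes were chosen by measured values: Ighg1 CPM, its estimated count per 1000000 counts of the library, of 10 or more (IgG1-high, 4 libraries) or under 10 (IgG1-low, 3 libraries). These 7 are among 27 libraries in all, and the other 20 come from HDM_SAL (n = 6), PBS_CP (n = 7) and PBS_SAL (n = 7). The classes are therefore no treatment groups, and each comparison below describes which other genes differed between libraries so chosen.

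All 27 mice were male C57Bl/6 wild types of 7 to 8 weeks. HDM mice had 5 oropharyngeal instillations of 10 µg of house dust mite extract, and PBS mice had PBS, at intervals of 2 to 3 days. A day after the fifth, CP mice received 100 µl of combustion products of paper, plastic and plywood at 2 mg per ml (200 µg), and SAL mice received saline. Lungs were taken 24 h later, so every HDM_CP mouse had the same exposures by its label. Libraries are called by group and the number in their label, and the labels do not say whether mice shared a cage, litter or day.

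House dust mite extract is an allergen that induces type 2 airway inflammation in mice, with eosinophils, mucus-producing goblet cells and alternatively activated macrophages. In mice, B cells that receive interleukin 4 and T cell help switch their heavy chain from IgM to IgG1 or IgE and become plasma cells that secrete the antibody. Secreted IgG1 is bound on myeloid cells by Fc gamma receptors, some activating and others inhibitory. In bulk lung RNA, more cells of a type and more RNA per cell cannot be told apart.

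Estimated counts summed to between 67824932 and 84451943 per HDM_CP library, and to between 56349532 and 84451943 over all 27. Both classes carried lung markers: the summed level of 13 alveolar type 2 cell markers, among them the surfactant protein genes, was 26361 to 28954 CPM in IgG1-high libraries and 22894 to 26835 CPM in IgG1-low libraries. The library numbers form 3 runs (45 and 49, 66 and 67, 96 to 98), and each run holds both classes. The labels do not call these runs batches. HDM_CP_66, an IgG1-low library, stood low for the mucus gene Clca1, at 69.6 CPM, which both other IgG1-low libraries exceeded 10-fold (751 and 1444 CPM).

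Ighg1 (chromosome 12, 113288860 to 113294143, GRCm39) was at 43.6, 88.4, 26.1 and 457 CPM in IgG1-high libraries HDM_CP_49, 67, 97 and 98, and at 2.12, 1.83 and 0.971 CPM in IgG1-low libraries HDM_CP_45, 66 and 96. The values nearest to the limit were thus 26.1 CPM inside and 2.12 CPM outside, and limits of 5 or 20 CPM give the same classes. No library of another group reached 10 CPM: the range was 1.2 to 3.9 CPM in HDM_SAL, 0.303 to 1.07 CPM in PBS_CP and 0.238 to 1.08 CPM in PBS_SAL. IgG1-low libraries therefore lay within or just below the HDM_SAL range, and the IgG1-high libraries lay above every other library. Among heavy chain constant region transcripts, Ighg1 made up 12, 14.7, 9.6 and 35% in the IgG1-high libraries, against 0.676, 0.635 and 0.452% in the IgG1-low libraries.

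Other immunoglobulin genes share their cellular source with the gene that set the classes. They are therefore described with no test between classes or groups and were left out of those comparisons. Some of them entered only the closing check for single outlying libraries. Ighg2b, a further IgG subclass, was at 7.8, 18.7, 4.84 and 26 CPM in IgG1-high libraries and 3.39, 3.04 and 1.56 CPM in IgG1-low libraries, with no overlap. Igha, the IgA constant region of mucosal antibody, was at 109, 146, 55.7 and 399.8 CPM in IgG1-high libraries and 64.1, 58.9 and 20.4 CPM in IgG1-low libraries, where HDM_CP_97 lay below the highest IgG1-low library. Ighm, the IgM constant region of unswitched B cells, was at 150.3, 241, 134 and 320.3 CPM in IgG1-high libraries and 184, 151 and 127 CPM in IgG1-low libraries, so the classes overlapped. HDM_CP_98 was the highest of the 7 for Ighg1, Ighg2b, Igha, Ighm and the light chain gene Igkc. Unlike Ighg1, high levels of these genes were not confined to IgG1-high libraries. PBS_SAL_105 had Ighg2b at 104.5, Igha at 540.7 and Igkc at 403.5 CPM, and PBS_SAL_81 had Ighg2b at 78.8 CPM. The PBS_SAL medians were 2.89 CPM for Ighg2b, 51.5 CPM for Igha and 84.8 CPM for Igkc. Ighe, the IgE constant region, was at 0.343, 0.192, 0 and 2.16 CPM in IgG1-high libraries and 0, 0 and 0.071 CPM in IgG1-low libraries. Variable segments of at least 1 CPM numbered 46, 78, 31 and 115 in IgG1-high libraries and 21, 33 and 15 in IgG1-low libraries, again overlapping. No segment dominated: the most abundant one held 7.37, 7.75, 8.05 and 7.82% of the variable segment sum in IgG1-high libraries and 14.7, 5.24 and 7.29% in IgG1-low libraries.

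**Figure D1:**
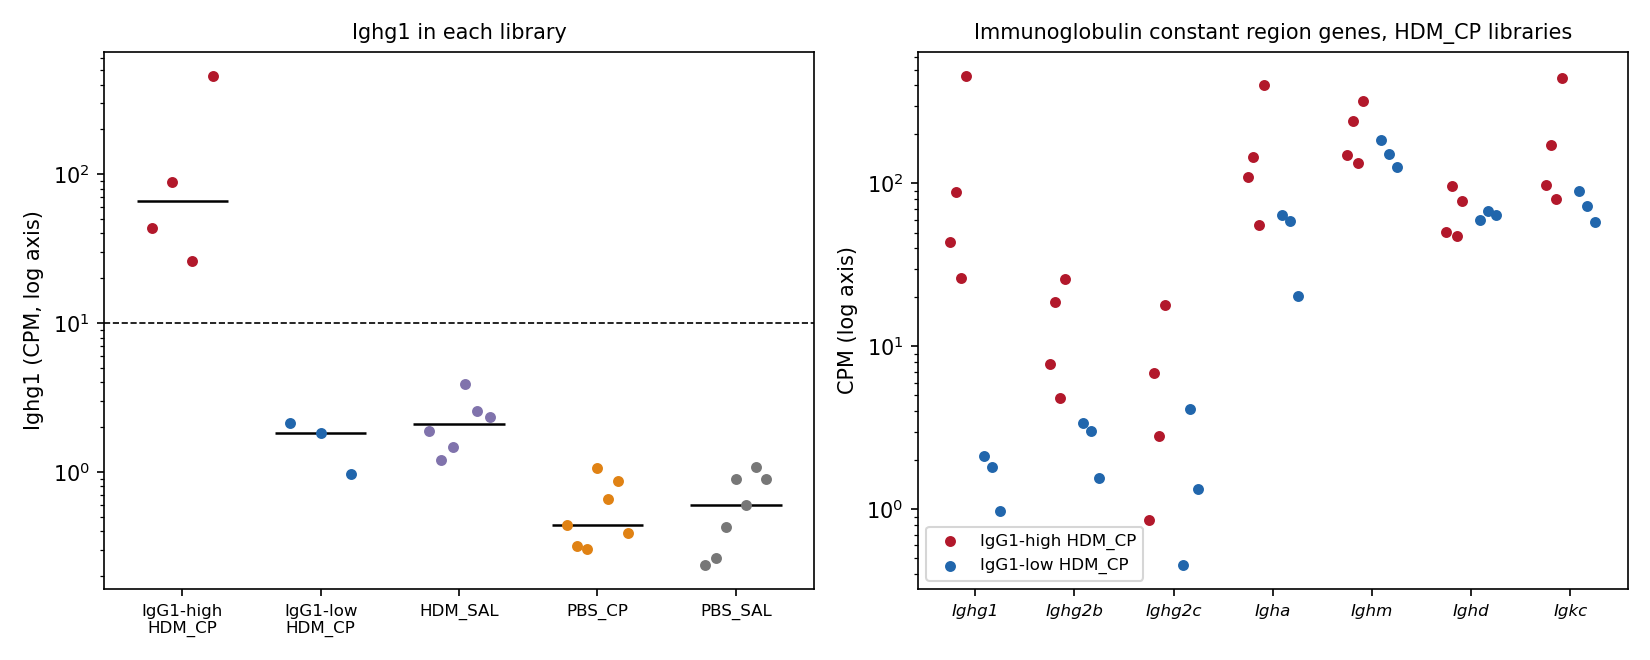
Ighg1 in CPM on a log axis for each library of the 5 classes (left; points are libraries, bars are medians, the dashed line is the limit of 10 CPM) and immunoglobulin constant region genes in the 7 HDM_CP libraries (right). The 4 IgG1-high libraries lie between 26.1 and 457 CPM and every other library lies below 4 CPM, while Ighm overlaps between the classes.

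The first comparison asked which other genes differed between the 4 IgG1-high and the 3 IgG1-low libraries, with immunoglobulin genes removed and the spread estimated from these 7 libraries. At an unadjusted p below 0.05, 28 of 30 cell cycle genes, 21 of 24 monocyte and recruited macrophage markers and 16 of 24 matrix remodelling genes had higher values in IgG1-high lungs, and 7 of 12 alveolar type 1 cell markers had lower ones. Among single genes, log2 fold changes were 3.24 ± 0.62 for Arg1 and 3.40 ± 0.74 for Mmp12. No gene passed an adjusted p of 0.05 in edgeR's quasi-likelihood test (0 of 23416 tested, 0%), and the smallest adjusted p, 0.0584, was shared by 11 genes. Without adjustment, 1545 genes were higher (6.6%) and 1122 lower (4.79%) at p below 0.05. All 4 IgG1-high libraries lay above all 3 IgG1-low libraries for 1559 genes (6.66%) and below them for 932 genes (3.98%). DESeq2 called 696 genes and limma voom 149 in the same libraries, and leaving out HDM_CP_97, the IgG1-high library with the least Ighg1, gave 274 calls, against 7 without HDM_CP_66, 3 without HDM_CP_96 and 0 without any other library.

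The same contrast was also tested with the spread estimated over all 27 libraries. There 155 of 26018 genes were called at an adjusted p of 0.05, of which 115 were higher (0.442%) and 40 lower (0.154%) in IgG1-high libraries. That count rested on single libraries: it was 1 without HDM_CP_45, 7 without HDM_CP_98, 20 without HDM_CP_96, 43 without HDM_CP_49, 61 without HDM_CP_67 and 477 without HDM_CP_97. Of 30 named genes called with all libraries, 1 kept its call without HDM_CP_45, 2 without HDM_CP_98, 7 without HDM_CP_96, 13 without HDM_CP_49, 15 without HDM_CP_67, 19 without HDM_CP_66 and 29 without HDM_CP_97, and none changed its sign. Calls named below as "with the 27-library spread" carry this limit.

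**Figure D2:**
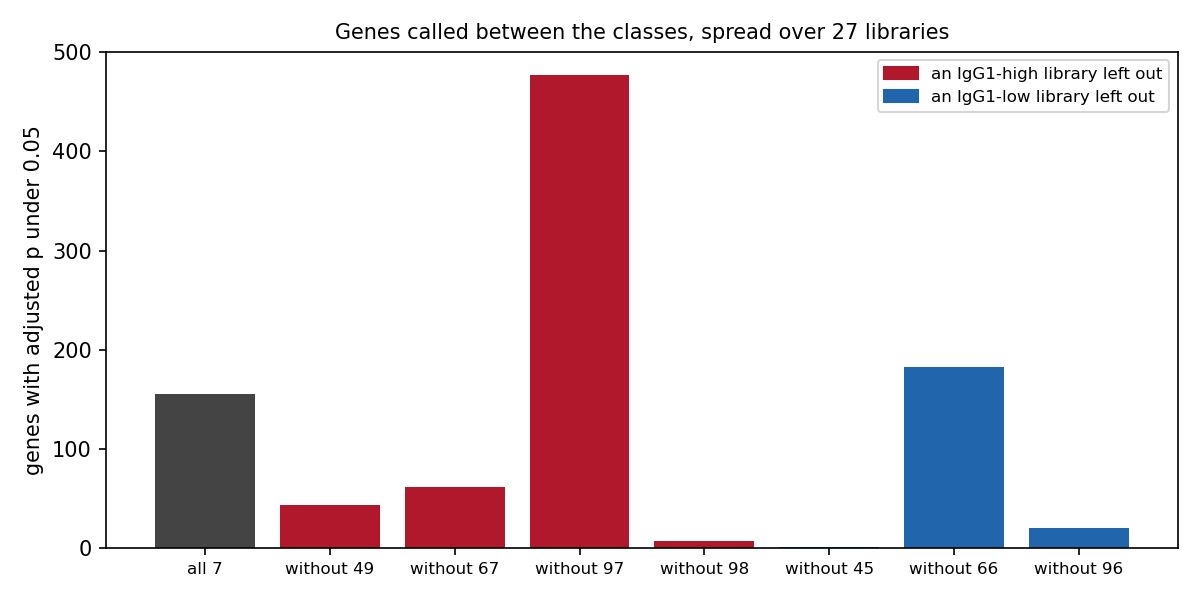
Number of genes with an adjusted p below 0.05 between IgG1-high and IgG1-low HDM_CP libraries, with the spread estimated over 27 libraries, for all 7 HDM_CP libraries (155 genes) and with each left out in turn. Bars start at 0; the count is 1 without HDM_CP_45 and 477 without HDM_CP_97.

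Receptors for the Fc part of IgG were among the genes of smallest p. Fcgr3 also belongs to the monocyte and recruited macrophage markers given below, so it is no separate result from that list. Fcgr3 (chromosome 1, 170878743 to 170892504), an activating receptor of macrophages, neutrophils and natural killer cells, was at 53.6, 57.1, 44.1 and 68.4 CPM in IgG1-high libraries and 26.1, 30.4 and 26 CPM in IgG1-low libraries. Fcgr2b (chromosome 1, 170786186 to 170804116), the inhibitory receptor of B cells and myeloid cells, was at 103, 119.7, 92.9 and 128 CPM in IgG1-high libraries and 52.1, 66.2 and 50.8 CPM in IgG1-low libraries. Neither overlapped between the classes, and even the lowest IgG1-high library, HDM_CP_97, exceeded the highest IgG1-low library, HDM_CP_66. The log2 fold changes were 1.00 ± 0.13 (adjusted p = 0.0584) and 0.96 ± 0.13 (adjusted p = 0.0589), and both genes were called with the 27-library spread (adjusted p = 0.0129 and 0.0161). Fcgrt, the neonatal Fc receptor that recycles IgG, was at 77.1, 84.4, 82.6 and 76.2 CPM in IgG1-high libraries and 87.4, 79 and 68 CPM in IgG1-low libraries, which overlapped (log2 fold change 0.023 ± 0.093).

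Genes of alternatively activated macrophages did not move as one. Arg1 (chromosome 10, 24791119 to 24803382), whose enzyme competes for arginine with nitric oxide synthase, was at 32.1, 63.8, 18.6 and 97.8 CPM in IgG1-high libraries and 4.28, 6.38 and 5.93 CPM in IgG1-low libraries. The classes stood well apart, and Arg1 had the largest positive fold change among the genes called with the 27-library spread and a mean log2 CPM of at least 1 (3.25 ± 0.63, adjusted p = 0.0173). Pdcd1lg2, which encodes the checkpoint ligand PD-L2, was at 5.8, 12.8, 3.84 and 9.87 CPM in IgG1-high libraries and 1.21, 3.27 and 1.73 CPM in IgG1-low libraries, also without overlap (1.95 ± 0.46, adjusted p = 0.0451 with the 27-library spread). Retnla, a secreted product of these macrophages and of airway epithelium, was at 3679, 3549.9, 3492 and 3158 CPM in IgG1-high libraries and 4321, 1342 and 4711 CPM in IgG1-low libraries and overlapped fully. Of 14 members of the list, 10 were higher at an unadjusted p below 0.05 and none lower, and 9 did not overlap, with a median log2 fold change of 0.83 where all genes had -0.0044. The chitinase-like genes Chil3 (1.05 ± 0.24) and Chil4 (1.36 ± 0.60) were both without overlap, but they are close paralogs whose reads the counting could have shared.

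Monocyte and recruited macrophage markers were higher in 21 of 24 members at an unadjusted p below 0.05 and lower in 1, with a median of 0.67. Gpnmb, a glycoprotein of lipid-laden and tissue-remodelling macrophages, was at 64, 53.8, 35.1 and 157 CPM in IgG1-high libraries and 14.5, 17.7 and 22.3 CPM in IgG1-low libraries. Trem2, a lipid-sensing receptor of macrophages, was at 22.9, 22.8, 13.1 and 35.9 CPM in IgG1-high libraries and 9.16, 8.27 and 6.44 CPM in IgG1-low libraries. In both genes HDM_CP_98 was highest and HDM_CP_97 lowest of the IgG1-high libraries, and the classes did not overlap. With the 27-library spread Gpnmb differed by 2.08 ± 0.47 (adjusted p = 0.0447) and Trem2 by 1.57 ± 0.36 (adjusted p = 0.0406). Adgre1, the F4/80 macrophage marker (0.63 ± 0.10), Ms4a7 (1.56 ± 0.29) and the cathepsin K gene Ctsk of alveolar macrophages (1.46 ± 0.30) were without overlap but not called. Ctsk does not stand for its list, which was split. Of 15 alveolar macrophage markers, 7 were higher and 2 lower at an unadjusted p below 0.05 (median 0.31). Without overlap, 4 of them lay above and 2 below. The summed level of the 24 monocyte and recruited macrophage markers was 4383 to 6604 CPM in IgG1-high libraries and 2513 to 3559.7 CPM in IgG1-low libraries.

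Further genes called higher with the 27-library spread were picked after their values were seen and stand for no list. The cathepsin B gene Ctsb differed by 0.62 ± 0.096 (adjusted p = 0.00404), the asparaginyl endopeptidase gene Lgmn by 0.51 ± 0.10 (adjusted p = 0.0173) and the saposin precursor gene Psap by 0.61 ± 0.13 (adjusted p = 0.028). Csf2rb, the shared beta chain of the receptors for GM-CSF, interleukin 3 and interleukin 5, differed by 0.82 ± 0.16 (adjusted p = 0.0189), and Itgax, the CD11c integrin chain, by 1.12 ± 0.26 (adjusted p = 0.0434). Inhba, which encodes the activin A subunit, differed by 1.41 ± 0.29 (adjusted p = 0.0233). H2-M2, a nonclassical MHC class I gene, was at 22.8, 28.1, 9.32 and 47.5 CPM in IgG1-high libraries and 3.83, 3.65 and 1.84 CPM in IgG1-low libraries, apart in all of them (3.10 ± 0.57, adjusted p = 0.0152).

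Several chemokine genes were apart between the classes. Ccl7, a monocyte chemokine, was at 8.93, 8.84, 6.1 and 6.49 CPM in IgG1-high libraries and 2.18, 3.16 and 1.94 CPM in IgG1-low libraries, with a gap between the classes (1.63 ± 0.23, adjusted p = 0.0686). Ccl9, a macrophage-derived chemokine, was at 88.8, 114, 51.1 and 209 CPM in IgG1-high libraries and 31.3, 28.7 and 31.2 CPM in IgG1-low libraries, and was called with the 27-library spread (1.92 ± 0.40, adjusted p = 0.0253). Ccl11, the eosinophil chemoattractant eotaxin 1, was at 33.9, 54.1, 41.4 and 26.7 CPM in IgG1-high libraries and 7.49, 20.3 and 14.1 CPM in IgG1-low libraries. Ccl24, eotaxin 2, was at 3.56, 19.1, 3.62 and 14.3 CPM in IgG1-high libraries and 1.05, 2.36 and 1.94 CPM in IgG1-low libraries. Both eotaxins and Ccl8 (1.46 ± 0.37), a ligand of CCR8 on mouse type 2 helper T cells, were without overlap, and none of the 3 was called in either fit. Over the 13 type 2 cytokine and chemokine genes, 5 were higher and 1 lower at an unadjusted p below 0.05, with a median of 0.67. Il13, the cytokine that drives mucus and eotaxin expression, was at 1.29, 2.14, 0.691 and 1.4 CPM in IgG1-high libraries and 0.914, 0.849 and 0.261 CPM in IgG1-low libraries, which overlapped, and Il5, the eosinophil growth factor, overlapped too (-0.25 ± 0.41). Il33, an epithelial alarmin, was at 197, 172, 207 and 193 CPM in IgG1-high libraries and 50.0, 93.8 and 171 CPM in IgG1-low libraries, where the gap to HDM_CP_96 was narrow. The summed level of 11 eosinophil markers was 123 to 255 CPM in IgG1-high libraries and 77.5 to 138 CPM in IgG1-low libraries, which overlapped. Ear1 and Ear2 of that list are also among the alveolar macrophage markers, so the sum does not stand for eosinophils alone. Of the 9 that were tested, 3 were higher at an unadjusted p below 0.05.

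Acute inflammation genes were higher in 15 of 23 members at an unadjusted p below 0.05 and lower in none, with a median of 0.85. Cxcl1, a neutrophil chemokine, was at 6.18, 6.09, 7.26 and 7.2 CPM in IgG1-high libraries and 3.32, 3.19 and 2.98 CPM in IgG1-low libraries, tight within each class (1.07 ± 0.15, adjusted p = 0.0589). Il1rn, the interleukin 1 receptor antagonist, was at 15.8, 24.6, 17.5 and 23 CPM in IgG1-high libraries and 4.72, 10.1 and 8.83 CPM in IgG1-low libraries and was called with the 27-library spread (1.35 ± 0.31, adjusted p = 0.0402). Cebpd, a transcription factor of the acute phase response, had the smallest p of all genes in the 7 libraries. It was at 73.8, 76.3, 68.5 and 78.2 CPM in IgG1-high libraries and 46.3, 48.3 and 47.5 CPM in IgG1-low libraries (0.63 ± 0.066, adjusted p = 0.0584), but it was not called with the 27-library spread (adjusted p = 0.169), and PBS_CP libraries ranged over 44.6 to 92.2 CPM. Lcn2, which binds bacterial siderophores, was at 571, 446, 360.0 and 548 CPM in IgG1-high libraries and 168, 229 and 244 CPM in IgG1-low libraries, without overlap (1.15 ± 0.18, adjusted p = 0.0721). Neutrophil markers followed less: 3 of 18 were higher and none lower at an unadjusted p below 0.05, and S100a8, an abundant granulocyte protein gene, was at 8.27, 13.1, 43.9 and 13.3 CPM in IgG1-high libraries and 18.3, 13.9 and 27.5 CPM in IgG1-low libraries, overlapping.

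**Figure D3:**
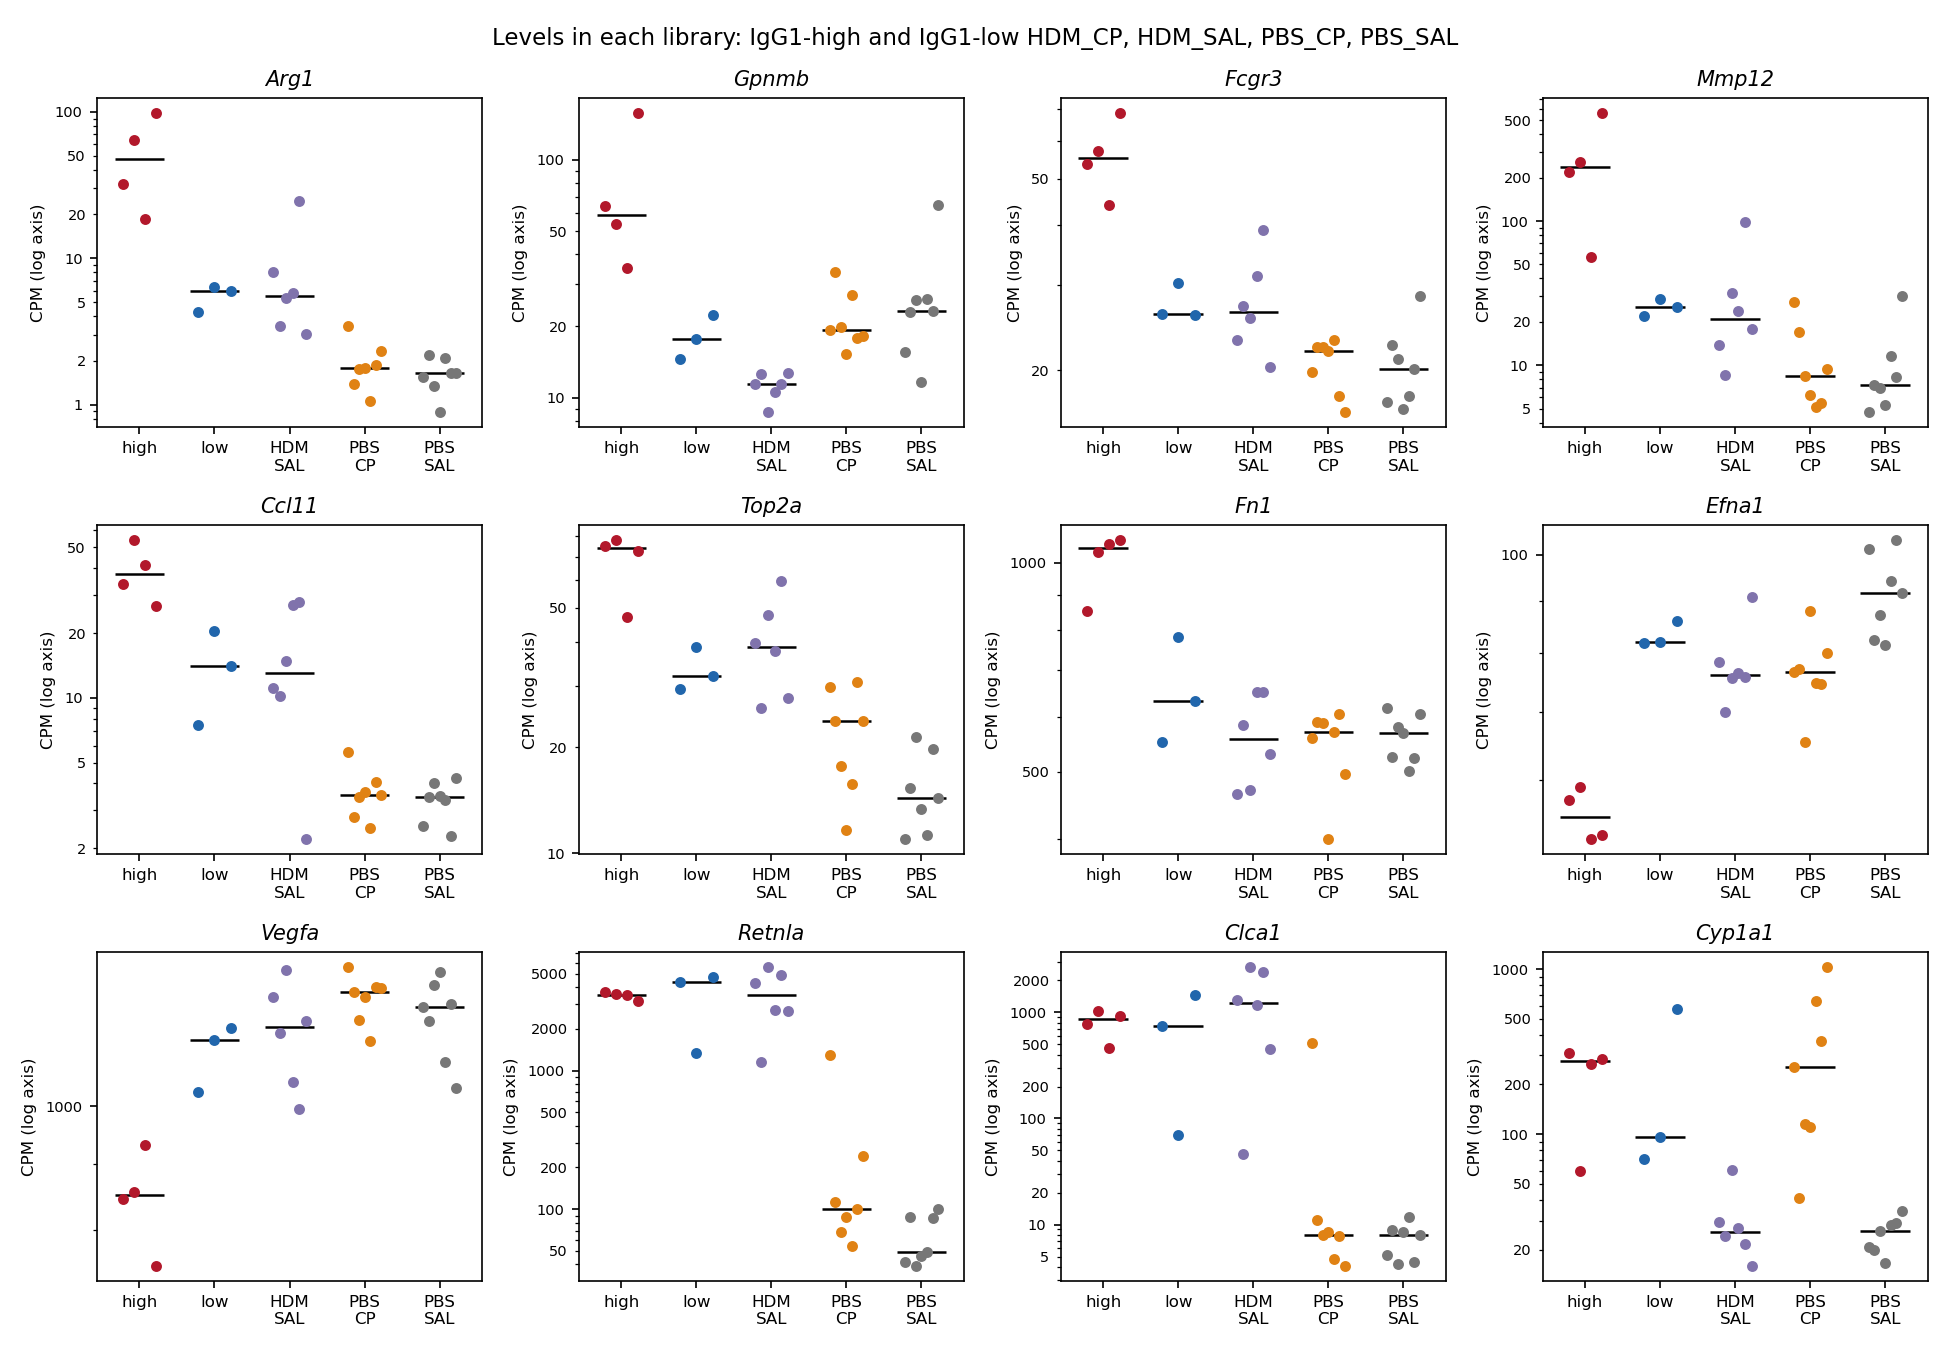
CPM on log axes of 12 genes in each library of IgG1-high HDM_CP, IgG1-low HDM_CP, HDM_SAL, PBS_CP and PBS_SAL (points are libraries, bars are medians). Arg1, Gpnmb, Fcgr3, Mmp12, Ccl11, Top2a and Fn1 lie higher, and Efna1 and Vegfa lower, in all 4 IgG1-high than in all 3 IgG1-low libraries, while Retnla, Clca1 and Cyp1a1 overlap.

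Of 24 genes of matrix remodelling, 16 were higher at an unadjusted p below 0.05 and 1 was lower, with a median of 0.61. Mmp12, the elastase of macrophages, was at 217, 256, 56 and 560.3 CPM in IgG1-high libraries and 22, 28.6 and 25.3 CPM in IgG1-low libraries. Its level within the IgG1-high class spanned from HDM_CP_97 to HDM_CP_98 by 10-fold, and the difference of 3.40 ± 0.74 was not called in either fit (adjusted p = 0.173 and, with the 27-library spread, 0.0795). Mmp13, a collagenase, was at 6.05, 4.28, 1.91 and 19.8 CPM in IgG1-high libraries and 1.16, 1.34 and 1.14 CPM in IgG1-low libraries, and was called with the 27-library spread (2.70 ± 0.49, adjusted p = 0.0129). Fn1, which encodes fibronectin, was at 853, 1038, 1064 and 1079 CPM in IgG1-high libraries and 552, 783 and 632 CPM in IgG1-low libraries, apart in all (0.61 ± 0.14, adjusted p = 0.0402 with the 27-library spread). The fibrillar collagen genes Col3a1 (0.66 ± 0.12) and Col5a2 (0.65 ± 0.10) and the collagen crosslinking enzyme gene Lox (0.55 ± 0.084) did not overlap either and were not called. The 18 fibroblast and pericyte markers, Col3a1 among them, were split. At an unadjusted p below 0.05, 4 were higher and 1 lower, and 4 lay above and 1 below without overlap, with a median of -0.033.

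Cell division genes were higher throughout the list: 30 of 30 had a positive fold change, 28 were higher at an unadjusted p below 0.05 and 25 did not overlap between the classes, with a median of 0.85. Top2a, the topoisomerase of dividing cells, was at 75.3, 78, 47.1 and 72.8 CPM in IgG1-high libraries and 29.3, 38.6 and 32 CPM in IgG1-low libraries. Ccnb1, the mitotic cyclin B1, was at 13.5, 16.1, 9.21 and 12.7 CPM in IgG1-high libraries and 5.34, 6.54 and 5.41 CPM in IgG1-low libraries. HDM_CP_97 was the lowest IgG1-high library for both, yet above every IgG1-low library. The differences were 1.02 ± 0.17 (adjusted p = 0.0922) and 1.14 ± 0.19 (adjusted p = 0.0898). Anln, a scaffold of the cleavage furrow, was at 22.6, 25.6, 19.6 and 21.9 CPM in IgG1-high libraries and 10.1, 12.3 and 12.4 CPM in IgG1-low libraries, and Asf1b, a histone chaperone of replication, differed by 1.17 ± 0.16. Both were called with the 27-library spread (adjusted p = 0.0495 and 0.0444). Which cells were dividing cannot be read from whole lung.

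Lymphocyte genes outside the immunoglobulin loci differed less evenly. Jchain, the joining chain that plasma cells add to secreted IgA and IgM, was at 32.2, 55.1, 23 and 172 CPM in IgG1-high libraries and 17.2, 15.7 and 4.68 CPM in IgG1-low libraries, without overlap and with a wide spread (2.47 ± 0.86, adjusted p = 0.354). Of 18 B cell markers 1 was higher at an unadjusted p below 0.05 and none lower (median 0.25), and of 16 plasma cell markers 5 were higher and none lower (median 0.32). Plasma cells are also a source of Ighg1, which set the classes. The values of Jchain and of the plasma cell markers are therefore a description and no independent result. Tnfrsf17, the BCMA receptor of plasma cells, was under 1 CPM in all 7 libraries and overlapped. Of 12 tested genes of the germinal centre and class switching, 5 were higher at an unadjusted p below 0.05 (median 0.38). In that list 1 gene was lower, Efna1, which is given below. Follicular helper T cell and lymphoid chemokine genes had a positive fold change in 13 of 13 tested members. Of these, 5 were higher at that level and 1 did not overlap (median 0.64). Cxcl13, which attracts B cells to lymphoid follicles, was at 11.9, 13.2, 1.91 and 15 CPM in IgG1-high libraries and 1.98, 4.02 and 1.46 CPM in IgG1-low libraries, with HDM_CP_97 inside the IgG1-low range (2.06 ± 0.47, adjusted p = 0.0413 with the 27-library spread). Summed B cell markers were 414 to 843 CPM in IgG1-high libraries and 503 to 597 CPM in IgG1-low libraries, and summed plasma cell markers were 719.8 to 959 CPM in IgG1-high libraries and 685 to 718.2 CPM in IgG1-low libraries. The plasma cell ranges thus nearly met. PBS_SAL_105, at 896 CPM, lay above every IgG1-high library but HDM_CP_98, and PBS_CP_76 was at 756 CPM.

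Regulatory and activated T cell genes were higher in 7 of 11 members at an unadjusted p below 0.05 and lower in none (median 0.89). Ctla4, an inhibitory receptor of activated and regulatory T cells, was at 6.92, 5.68, 3.53 and 6.00 CPM in IgG1-high libraries and 2.52, 3.35 and 1.81 CPM in IgG1-low libraries, without overlap (1.09 ± 0.28). Foxp3, the transcription factor of regulatory T cells, was at 3.83, 5.3, 1.87 and 4.9 CPM in IgG1-high libraries and 2.01, 2.48 and 2.04 CPM in IgG1-low libraries, where HDM_CP_97 lay below all IgG1-low libraries. Of 17 general T cell markers 3 were higher and none lower (median 0.24). All 10 MHC class II pathway genes had a positive fold change and 7 were higher at an unadjusted p below 0.05, but none was free of overlap. Cytotoxic and interferon gamma response genes went the other way in part, with 5 of 19 lower and 2 higher at an unadjusted p below 0.05 (median -0.18).

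Genes lower in IgG1-high libraries were led by Efna1 (chromosome 3, 89179040 to 89188449), which encodes the membrane-bound ligand ephrin A1. It was at 57.3, 59, 52.5 and 52.9 CPM in IgG1-high libraries and 81.8, 82.1 and 86 CPM in IgG1-low libraries. The IgG1-high values also lay below every HDM_SAL, PBS_CP and PBS_SAL library, and the difference was -0.60 ± 0.067 (adjusted p = 0.0584) and was called with the 27-library spread (adjusted p = 0.00394). Esm1, a secreted product of endothelial tip cells, was at 8.31, 10.0, 13.9 and 6.65 CPM in IgG1-high libraries and 21.6, 26.1 and 21.5 CPM in IgG1-low libraries (-1.25 ± 0.29, adjusted p = 0.0488 with the 27-library spread). Vegfa, the endothelial growth factor that alveolar type 1 cells supply, was at 846, 857, 933 and 749.7 CPM in IgG1-high libraries and 1026, 1128 and 1151 CPM in IgG1-low libraries (-0.38 ± 0.089, adjusted p = 0.0413 with the 27-library spread). All 3 genes were free of overlap. Igfbp3, a carrier of insulin-like growth factors (-0.85 ± 0.18), Wnt10b, a Wnt ligand (-0.93 ± 0.17), Il12a, a subunit of interleukins 12 and 35 (-0.94 ± 0.22), and Cirbp, a cold-inducible RNA-binding protein gene (-0.74 ± 0.13), were also called lower with the 27-library spread.

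Of 12 alveolar type 1 cell markers, 12 had a negative fold change and 7 were lower at an unadjusted p below 0.05 (median -0.28), and their summed level was 5749 to 7978 CPM in IgG1-high libraries and 7902 to 9164 CPM in IgG1-low libraries. Alveolar type 2 cell markers went the other way: 12 of 13 had a positive fold change, 5 were higher and none lower at an unadjusted p below 0.05, and 4 did not overlap (median 0.20). Il33, given above among the cytokine genes, belongs to that list too. Of 12 club cell markers 3 were lower and none higher (median -0.41). Scgb1a1, the main club cell secretory protein gene, was at 13781, 12981, 16145 and 9286 CPM in IgG1-high libraries and 27339, 14915 and 20925 CPM in IgG1-low libraries, where HDM_CP_97 overlapped with HDM_CP_66. Cyp2f2, a club cell cytochrome P450, was at 924, 878, 1212 and 686 CPM in IgG1-high libraries and 1922, 1356 and 1246 CPM in IgG1-low libraries, without overlap (-0.71 ± 0.20, adjusted p = 0.227). The ciliated cell gene Tppp3 was the 1 member of 18 that was lower at an unadjusted p below 0.05, and it was called with the 27-library spread (-0.60 ± 0.13, adjusted p = 0.0253). The lower epithelial levels are shares of all RNA and stood beside the higher summed macrophage markers given above, whose part in them was not tested. Of 16 endothelial markers 5 were lower and 1 higher at an unadjusted p below 0.05. Kdr, the main VEGF receptor, was lower (-0.33 ± 0.084) and the adhesion molecule gene Vcam1 higher (0.36 ± 0.087), both without overlap. Markers of heart muscle (0 of 13) and red blood cells (0 of 9) gave none at that level, while 4 of 9 tested markers of skeletal muscle, fat, thyroid and liver were lower. All 14 listed markers of those tissues summed to 4.13 to 6.7 CPM in IgG1-high libraries and 9.06 to 12.1 CPM in IgG1-low libraries.

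Most genes of the mucous airway response and of the chemical response to combustion products did not separate the classes. Clca1, which marks mucous metaplasia, was at 783, 1024, 458 and 931 CPM in IgG1-high libraries and 751, 69.6 and 1444 CPM in IgG1-low libraries, with a fold change of 0.077 ± 0.83. Muc5ac, a gel-forming mucin, was at 118, 81.8, 54.2 and 101 CPM in IgG1-high libraries and 52.7, 12.9 and 95.1 CPM in IgG1-low libraries. Of 17 goblet cell genes 3 were higher at an unadjusted p below 0.05 and none lower (median 0.33), and 2 lay above without overlap. Slc26a4, the epithelial anion exchanger pendrin, was 1 of those 2, at 185, 204, 172 and 234 CPM in IgG1-high libraries and 50.4, 55.6 and 103 CPM in IgG1-low libraries (1.5 ± 0.24, adjusted p = 0.0942). Cyp1a1, a target of the aryl hydrocarbon receptor and a gauge of exposure to combustion-derived aromatic hydrocarbons, was at 311, 59.6, 266 and 287 CPM in IgG1-high libraries and 70.3, 96.7 and 571 CPM in IgG1-low libraries, and the classes overlapped (-0.098 ± 0.86). Of 12 targets of that receptor 1 was lower and none higher at an unadjusted p below 0.05 (median -0.094). Of 18 type I interferon response genes none was higher or lower at that level (median 0.018). With the standard errors of Clca1 and Cyp1a1, differences of about a log2 unit in them were not detectable.

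**Figure D4:**
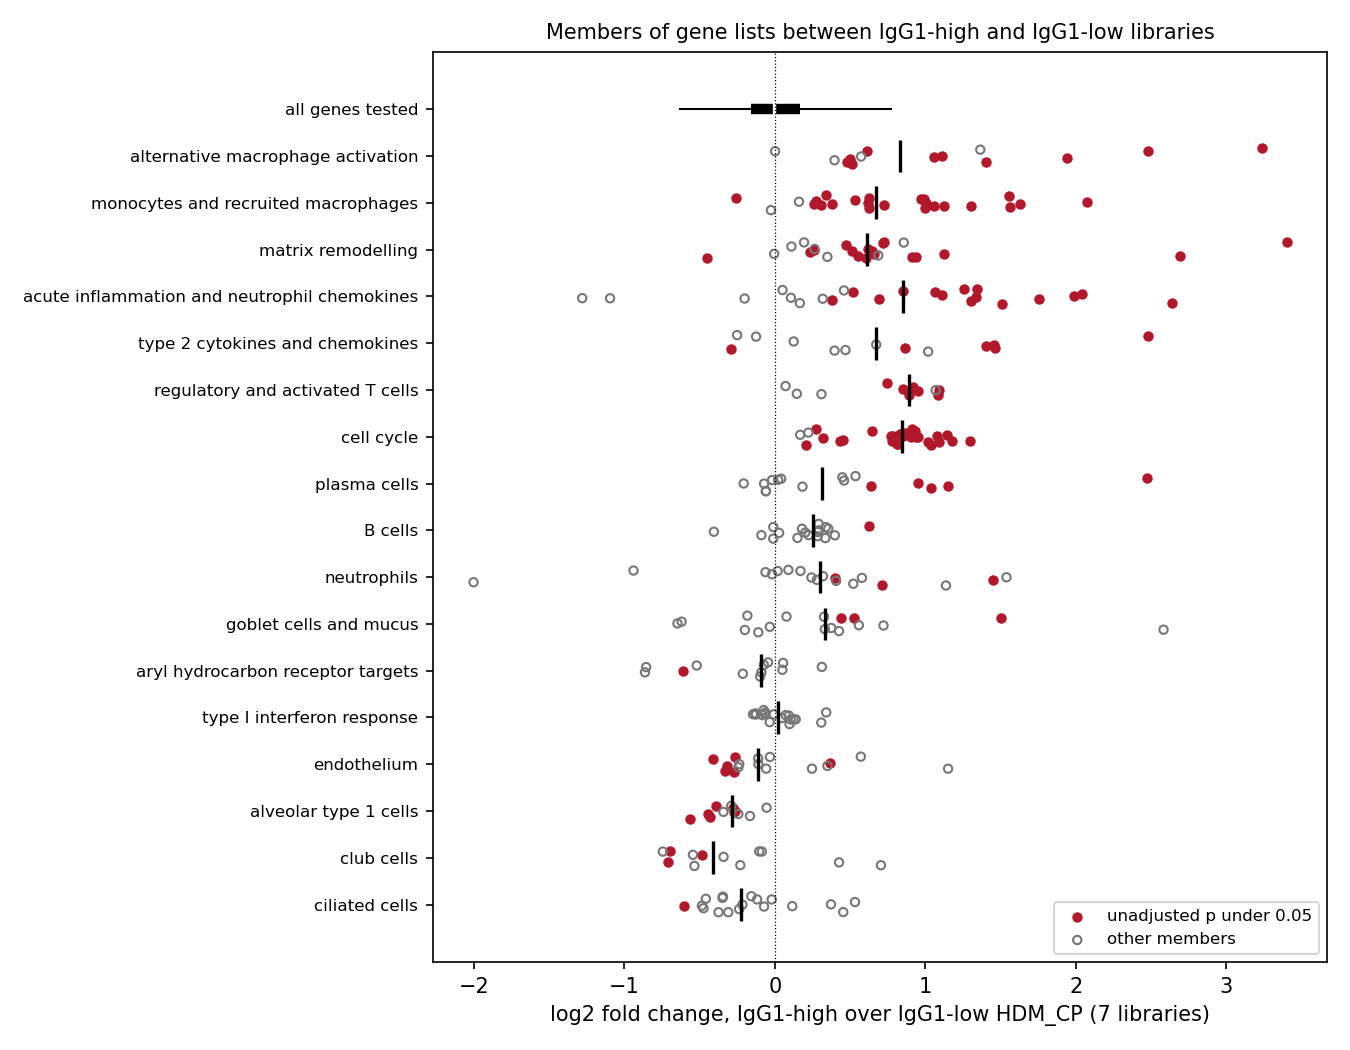
Log2 fold change, IgG1-high over IgG1-low HDM_CP, of each member of 17 gene lists (filled: unadjusted p below 0.05; open: other members; vertical bars: list medians), with all genes tested on top (thick bar: 25th to 75th percentile, thin bar: 5th to 95th percentile). Cell cycle, macrophage, matrix and inflammation lists lie to the right, with medians of 0.61 to 0.85, and alveolar type 1 and club cell lists to the left, with medians of -0.28 and -0.41.

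Each class was next set beside the same labelled groups, which shows where the classes stand relative to mice without combustion products or without allergen. Both comparisons with a group share its libraries, and the classes hold 4 and 3 libraries, so counts of calls are given side by side and not compared. Against HDM_SAL, the same allergen with saline, IgG1-high libraries differed at an adjusted p of 0.05 in 1007 genes, 692 higher (2.66%) and 315 lower (1.21%). IgG1-low libraries differed from HDM_SAL in 1 gene, Apol7c, which was higher (0.00384%), and in 0 lower (0%). At an unadjusted p below 0.05, IgG1-low libraries were higher than HDM_SAL in 233 genes and lower in 431, and DESeq2 called 1 higher and 1 lower. The median standard error over genes was close in both, at 0.19 for IgG1-high and 0.21 for IgG1-low. Of 86 named genes called in IgG1-high libraries over HDM_SAL, 38 were still called without HDM_CP_98. The IgG1-high count was 331 with only those groups in the fit, 317 without HDM_CP_98, 527 without HDM_CP_67 and 664 without HDM_SAL_54.

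Apol7c, a member of the apolipoprotein L family found in dendritic cells of mice, was at 15.5, 14.3, 10.3 and 20.6 CPM in IgG1-high libraries and 7.06, 8.04 and 8.48 CPM in IgG1-low libraries, against 2.22 to 4.04 CPM in HDM_SAL. Every HDM_CP library lay above every HDM_SAL library, and the fold changes over HDM_SAL were 2.25 ± 0.20 for IgG1-high (adjusted p = 1.5e-07) and 1.31 ± 0.21 for IgG1-low (adjusted p = 0.0289). The IgG1-low call was lost when any IgG1-low library, or HDM_SAL_50, 52 or 54, was left out. Cyp1a1 rose over HDM_SAL in IgG1-high libraries (2.96 ± 0.70, adjusted p = 0.0172). In IgG1-low libraries it was higher by a similar size but not called (3.06 ± 0.73), against HDM_SAL levels of 16 to 60.8 CPM with a median of 25.5 CPM. Cyp1b1, another target, rose by 1.98 ± 0.52 in IgG1-high libraries (adjusted p = 0.0328) and was 2.05 ± 0.56 apart in IgG1-low libraries, where it was not called.

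Arg1 rose over HDM_SAL in IgG1-high libraries by 2.67 ± 0.47 (adjusted p = 0.00215) and differed by -0.58 ± 0.53 in IgG1-low libraries, with HDM_SAL at 3.04 to 24.5 CPM with a median of 5.56 CPM. Gpnmb rose by 2.78 ± 0.38 in IgG1-high libraries (adjusted p = 0.000204) and differed by 0.70 ± 0.41 in IgG1-low libraries. HDM_SAL_99 was the highest HDM_SAL library for Arg1, at 24.5 CPM, and exceeded the IgG1-high library HDM_CP_97 there. It also exceeded HDM_CP_97 for Ccl9, Trem2, Mmp12 and Lcn2, at 75.9, 16.7, 98.5 and 517.5 CPM, but not for Ccl7, at 4.59 CPM. Summed cell cycle genes were at 658 CPM in HDM_SAL_99 and 546 CPM in HDM_CP_97. Summed monocyte and recruited macrophage markers were at 3967 CPM in HDM_SAL_99, below all IgG1-high libraries. Mmp13 rose by 2.89 ± 0.38 in IgG1-high libraries (adjusted p = 8.2e-05) and differed by 0.20 ± 0.42 in IgG1-low libraries. Fcgr3 rose by 1.01 ± 0.15 (adjusted p = 0.000303), Fn1 by 0.85 ± 0.12 (adjusted p = 0.000103), Il1rn by 1.78 ± 0.25 (adjusted p = 0.000173) and Il33 by 1.04 ± 0.20 (adjusted p = 0.00385) in IgG1-high libraries. The same 4 genes differed from HDM_SAL by -0.0045, 0.24, 0.43 and 0.17 in IgG1-low libraries, none of them called. Efna1 fell by 0.49 on the log2 scale in IgG1-high libraries (adjusted p = 0.000488), and was 0.10 apart in IgG1-low libraries. Scgb1a1 was called lower in IgG1-high libraries (-0.72 ± 0.19, adjusted p = 0.0254) and differed by -0.03 ± 0.20 in IgG1-low libraries.

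By list, monocyte and recruited macrophage markers rose over HDM_SAL in 17 of 24 members in IgG1-high libraries (median 0.84) and in 0 in IgG1-low libraries (median 0.087). Matrix remodelling genes rose in 13 of 24 members in IgG1-high libraries (median 0.62) and in 0 in IgG1-low libraries (median 0.15). Acute inflammation genes rose in 9 of 23 members in IgG1-high libraries (median 1.02) and in 0 in IgG1-low libraries (median 0.095). Regulatory and activated T cell genes rose in 6 of 11 members in IgG1-high libraries (median 1.05) and in 0 in IgG1-low libraries (median 0.19). The median over all genes was -0.0058 for IgG1-high and -0.0062 for IgG1-low libraries. Over all genes tested, 2.66% were called higher in IgG1-high and 0.00384% in IgG1-low libraries. A list with 0 calls in IgG1-low libraries was therefore near the share over all genes. Cell cycle genes rose in 7 of 30 members in IgG1-high libraries (median 0.61), while IgG1-low libraries had 0 calls and a median of -0.20. Goblet cell genes were called in 0 of 17 members in either class, with medians of -0.22 in IgG1-high and -0.50 in IgG1-low libraries, and neutrophil markers rose in 6 of 19 members in IgG1-high libraries (median 1.05) and 0 in IgG1-low libraries (median 0.78).

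Against PBS_CP, the combustion products without allergen, IgG1-high libraries differed in 3104 genes, 1939 higher (7.45%) and 1165 lower (4.48%), and in 1910 without HDM_CP_98. IgG1-low libraries differed in 33 genes, all higher (0.127%), with 0 lower (0%). Unadjusted, IgG1-low libraries were higher in 1258 and lower in 850 genes, and DESeq2 called 108 higher and 18 lower. The IgG1-low count was 12 without HDM_CP_45, 18 without HDM_CP_96 and 66 without HDM_CP_66. It was 75 without PBS_CP_57, 16 without PBS_CP_58 or 101, and 21 without PBS_CP_75, 76 or 102. Goblet cell genes were called higher in 11 of 17 members in IgG1-high and 2 in IgG1-low libraries, and type 2 cytokine and chemokine genes in 8 of 13 in IgG1-high and 1 in IgG1-low libraries. Retnla rose by 3.63 ± 0.68 in IgG1-high (adjusted p = 0.000769) and by 3.62 ± 0.71 in IgG1-low libraries (adjusted p = 0.0371). Ccl8 rose by 5.13 ± 0.47 in IgG1-high (adjusted p = 2.1e-07) and by 3.67 ± 0.48 in IgG1-low libraries (adjusted p = 0.000606), and Slc26a4 by 4.51 ± 0.46 in IgG1-high (adjusted p = 7.3e-07) and 3.01 ± 0.46 in IgG1-low libraries (adjusted p = 0.00374).

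Clca1 differed from PBS_CP by 3.31 ± 1.15 in IgG1-high and 3.23 ± 1.2 in IgG1-low libraries and was called in neither, with PBS_CP at 4.11 to 519 CPM with a median of 8.05 CPM. Cell cycle genes rose over PBS_CP in 30 of 30 members in IgG1-high libraries (median 1.45) and in 0 in IgG1-low libraries (median 0.49). Alternative macrophage genes rose in 14 of 14 members in IgG1-high libraries (median 2.09) and in 3 in IgG1-low libraries (median 1.04). Over all genes tested, 7.45% were called higher in IgG1-high and 0.127% in IgG1-low libraries. Fcgr2b rose by 1.64 ± 0.14 in IgG1-high libraries (adjusted p = 5.2e-08) and was 0.67 ± 0.16 apart in IgG1-low libraries (adjusted p = 0.101). Cyp1a1 was called in neither class over PBS_CP and differed by -0.67 ± 0.68 in IgG1-high and -0.57 ± 0.75 in IgG1-low libraries, with PBS_CP at 41.3 to 1028 CPM with a median of 255 CPM.

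**Figure D5:**
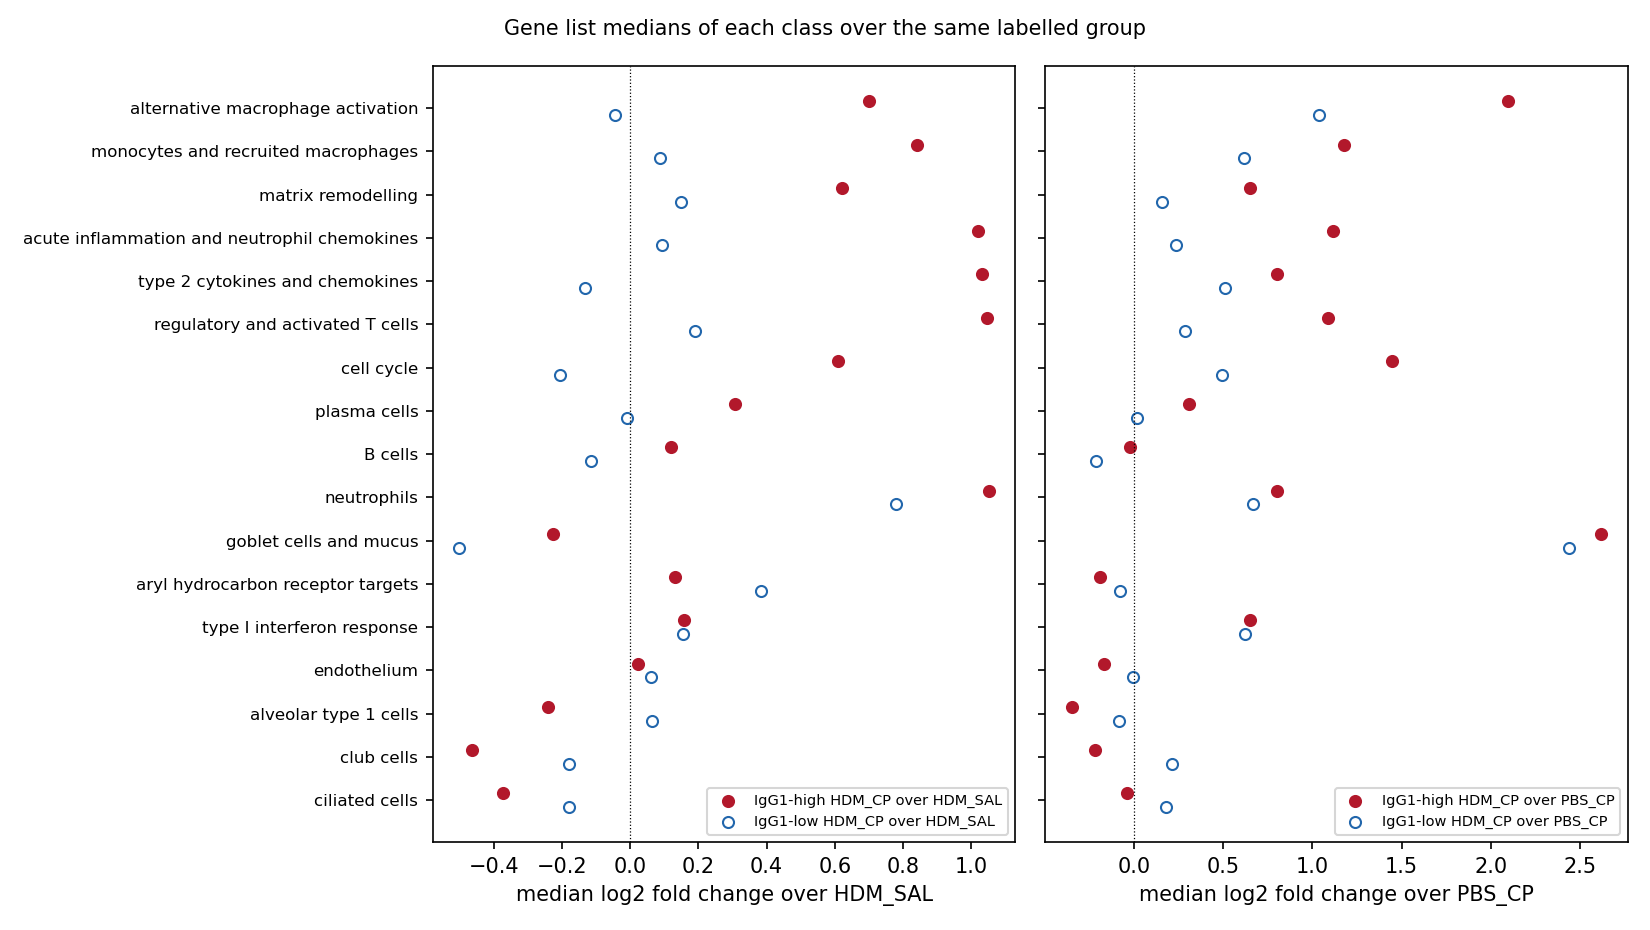
Median log2 fold change of 17 gene lists in IgG1-high (filled) and IgG1-low (open) HDM_CP libraries over HDM_SAL (left) and over PBS_CP (right). Over HDM_SAL the IgG1-low medians of the macrophage, matrix, inflammation and cell cycle lists lie between -0.20 and 0.15 and the IgG1-high ones between 0.61 and 1.02; both share the HDM_SAL libraries.

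The HDM_SAL mice, which the rule did not use, could not be split at 10 CPM, since 0 of 6 reached it. A slope on log2(Ighg1 CPM + 1) over these 6 libraries, whose Ighg1 spanned only 1.2 to 3.9 CPM, gave 0 calls of 19855 genes tested (0%), with 340 at an unadjusted p below 0.05 and 0 calls by DESeq2. Per unit of that scale, Arg1 had a slope of 1.36 ± 1.16, Fcgr2b of 0.60 ± 0.25, Ccl8 of 1.59 ± 0.61 and Efna1 of 0.11 ± 0.15. None of these passed adjustment. The cell cycle list had a median slope of 0.25 and the alternative macrophage list of 0.74, against -0.0026 over all genes. Other lists had slopes of either sign: the median was 1.05 for red blood cell markers (9 of 9 positive) and 0.66 for heart muscle markers (11 of 12 positive), while 18 of 18 ciliated cell markers and 19 of 19 cholesterol synthesis genes had negative slopes (medians -0.40 and -0.30). Their part in the other slopes was not tested.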

How the data were processed

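Whole-lung polyA RNA was sequenced from 27 mice, with paired reads of 150 bases. Per the submitters' processing notes, reads were processed with STAR and StringTie 2 on GRCm39, and the deposited table gives an estimated count per gene. Per the file headers, the authors also deposited TPM per gene. Counting was not stated to use strand. The estimated counts summed to between 56349532 and 84451943 per library, above the planned number of read pairs, so whether a count stands for 1 fragment is not known, and a division by 4 was tried. They were rounded to whole numbers. Rows without a symbol (310, 0.0602% of counts) and 432 immunoglobulin genes were left out.

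HDM_CP libraries were split at an Ighg1 level of 10 CPM. Genes passing edgeR's filter (minimum count 10) were tested with edgeR 4.0.16 (TMM, robust quasi-likelihood) in R 4.3.3, over the 7 HDM_CP libraries or over all 27, with Benjamini-Hochberg adjustment over all genes tested and a threshold of 0.05. Fold changes are log2 ± standard error, taken as the absolute fold change over the square root of the quasi-likelihood F statistic. DESeq2 1.42.0, limma 3.58.1 (voom with quality weights, and log2(TPM + 1)), other scalings, filters and Ighg1 limits, and leaving out each library were tried. The fits were tested on simulated data. P-values measure the spread between these libraries only.

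The classes and gene lists were chosen with earlier results of these data known. Named genes were the 10 with the smallest p in the 7 libraries, the 4 with the smallest p of each list, a list of 32 genes, and immunoglobulin constant region genes. The 10 largest positive and 10 largest negative fold changes among calls with the 27-library spread (mean log2 CPM of at least 1) were added after the values were seen, as were the alternatives to that fit. Some items are not reported here.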

Additional observations from a re-analysis of the deposited data

Results flagged for a closer look

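Over 44 genes and 3 classes or groups, 132 sets of libraries were checked for a single library far from the others, and 19 values stood out. The 3 were IgG1-high, HDM_SAL and PBS_CP, so IgG1-low and PBS_SAL libraries were not checked. The limits used mark about 1 in 20 sets of independent, normally distributed values, and these sets share libraries and hold CPM values, so their own rate is not known. HDM_CP_98 stood above the other IgG1-high libraries for Ighg1, at 457.2 CPM against 26.14 to 88.4 CPM. Ighg1 set this class, so that value is a description only and the limit does not apply to it. HDM_CP_97 stood below the other IgG1-high libraries for Top2a, at 47.07 CPM against 72.81 to 77.97 CPM.

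HDM_SAL_99 stood above the other HDM_SAL libraries for 6 macrophage and inflammation genes. Arg1 was at 24.53 CPM there (others 3.036 to 8.094), Ccl9 at 75.92 CPM (others 21.78 to 29.28) and Trem2 at 16.68 CPM (others 5.056 to 8.509). Ccl7 was at 4.592 CPM (others 1.39 to 2.495), Lcn2 at 517.5 CPM (others 103.4 to 195.9) and Mmp12 at 98.46 CPM (others 8.538 to 31.62). HDM_SAL_54 was high for Cyp1a1, at 60.76 CPM, where the other HDM_SAL libraries had 16 to 29.25 CPM.

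PBS_CP_57, labelled as given no allergen, stood above the other PBS_CP libraries for 6 genes of the allergic airway. Clca1 was at 519.1 CPM (others 4.107 to 11.03), Muc5ac at 42.92 CPM (others 1.861 to 3.115) and Retnla at 1298 CPM (others 54.29 to 241.5). Slc26a4 was at 28.96 CPM (others 4.664 to 6.407), Ccl8 at 4.678 CPM (others 0.8754 to 2.037) and Ccl24 at 1.009 CPM (others 0.1486 to 0.4687). PBS_CP_76 stood above the other PBS_CP libraries for Igkc at 184.7 CPM (others 61.98 to 90.8), Igha at 225.3 CPM (others 38.15 to 61.81), Ighg2c at 6.354 CPM (others 0.2717 to 1.658) and Jchain at 50.9 CPM (others 8.947 to 21.96).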

How the results depend on the processing

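In the 7 libraries, the 0 calls became 696 with DESeq2, 149 with voom, 41 with no filter, 1 with log2(TPM + 1), 455 with log2 Ighg1 CPM as a continuous term and 155 with all 27 libraries, and ranged from 0 to 274 on leaving out a library. Every other setting tried there gave 0, except the runs of library numbers given below. With the 27-library spread, the 155 calls became 620 with DESeq2, 94 with no filter, 269 with log2(TPM + 1) (237 higher and 32 lower), 806 with voom and 288 with counts divided by 4, and ranged from 1 to 477 on leaving out a library. IgG1-high over HDM_SAL gave 1007 calls, 1680 with DESeq2, 331 with only those groups and 317 to 1278 on leaving out a library; log2(TPM + 1) gave 1087 higher and 191 lower. IgG1-low over HDM_SAL gave 1 call, 2 with DESeq2, 0 with log2(TPM + 1), 0 with only those groups and 0 to 1 on leaving out a library. IgG1-high over PBS_CP gave 3104 calls and 1910 to 3161 on leaving out a library. IgG1-low over PBS_CP gave 33 calls, 126 with DESeq2, 21 with log2(TPM + 1), 74 with only those groups and 12 to 75 on leaving out a library. The cause of these moves was not tested. No paired analysis was possible because the groups share no replicate numbers. The runs of library numbers, which the labels do not call pairs or batches, were fitted as a term instead and gave 2 calls in the 7 libraries and 151 with the 27-library spread. Depth limits genes near 1 CPM.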
